A study of Mus musculus with 19 samples.

Results

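Class I molecules of the major histocompatibility complex (MHC) were followed in OT-I cells, CD8 T cells that all carry 1 transgenic receptor. The genes were H2-K1 and H2-D1, which encode the classical heavy chains, the nonclassical genes H2-Q10, H2-Q5 and H2-T23, and B2m, which encodes the light chain β2-microglobulin. The set was chosen by measured values of these same samples, the rise of the H2-Q10 signal at day 40 and, beside it, the liver signal at day 115, so that day-40 values and liver genes are given as descriptions with no test. The 6 genes are among 8949 named on the arrays. Every probe set whose symbol field held at least 1 of the 6 symbols was taken, which gave 14 of the 12422 probe sets on the arrays. Of these, 9 carried 1 symbol and 5 carried several, so that their signal cannot be assigned to 1 gene. H2-K1 and H2-D1 each had 5 probe sets, of which 3 carried that symbol alone. H2-Q10, H2-Q5 and H2-T23 each had 2, of which 1, 1 and 0 carried it alone, and B2m had 1. Identifiers that end in _f_at or _s_at belong to designs that also match related sequences, and _r_at marks a design in which some rules for probe choice were dropped. Only 97700_at of H2-K1 and 93088_at of B2m carried 1 symbol and no such ending.

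The arrays held 8 samples titled day 5, 4 titled day 40 and 3 titled day 115, all of cells taken from irradiated B6 hosts, and 4 titled nrd, of OT-I cells taken from unirradiated B6 hosts. All were sorted from lymph node and spleen after transfer, and the sample descriptions give day 6 as the day of sorting for both the day-5 and the nrd samples. Some descriptions of day-5 samples do not name the cell type, and these samples are taken as OT-I cells like the others. Unirradiated hosts are represented by the nrd samples alone, so at day 40 and day 115 time since transfer and the state of the host cannot be told apart. The radiation dose, the age and sex of the mice, the number of cells transferred and whether animals were pooled do not appear in the sources used here, and p-values therefore measure the spread between these samples, which may be technical.

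Class I molecules carry peptides from inside the cell to its surface, where CD8 T cells read them. The peptides are cut by the proteasome, moved into the endoplasmic reticulum by the transporter Tap1/Tap2 and loaded onto a heavy chain paired with β2-microglobulin with the help of tapasin (Tapbp). Interferons raise most genes of this pathway. The OT-I receptor itself recognises an ovalbumin peptide on the H-2Kb molecule, which H2-K1 encodes in B6 mice. H2-T23 encodes Qa-1, a ligand of the receptor pair CD94/NKG2 on NK cells and some CD8 T cells, and H2-Q10 encodes a secreted heavy chain known chiefly as a product of the liver. RefSeq annotates H2-Q5 as a transcribed pseudogene. B2m lies on mouse chromosome 2 and the other 5 genes lie on chromosome 17.

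The upstream regions of 3 heavy chain genes and B2m are shown because classical class I genes are known to be controlled through a short stretch in front of the start, and because the data set H2-Q10 beside those genes. Each stretch is 130 bases from RefSeq (build GRCm38.p6), read 5′ to 3′ on the gene's strand, at chr17:35469889-35470018 (plus strand) for H2-Q10, chr17:34000353-34000482 (minus strand) for H2-K1, chr17:35262899-35263028 (plus strand) for H2-D1 and chr2:122147505-122147634 (plus strand) for B2m. Capitals mark matches, on either strand, to the motifs listed after the sequences.
H2-Q10: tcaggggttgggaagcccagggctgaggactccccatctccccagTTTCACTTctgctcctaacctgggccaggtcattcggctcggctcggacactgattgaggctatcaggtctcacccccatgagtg
H2-K1: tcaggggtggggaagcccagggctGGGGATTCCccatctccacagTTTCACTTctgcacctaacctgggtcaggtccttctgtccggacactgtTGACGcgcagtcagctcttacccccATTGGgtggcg
H2-D1: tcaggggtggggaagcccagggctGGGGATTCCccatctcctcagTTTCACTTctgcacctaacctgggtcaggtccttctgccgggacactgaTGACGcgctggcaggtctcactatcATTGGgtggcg
B2m: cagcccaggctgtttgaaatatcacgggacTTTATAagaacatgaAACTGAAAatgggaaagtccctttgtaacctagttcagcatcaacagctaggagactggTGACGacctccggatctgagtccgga

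The motifs searched were GGGNNTTCC for NF-κB, TTTCNNTT for the interferon response, TGACG for a CRE core, CCAAT and TATAAA, each on both strands, and no 2 matches overlapped in the windows of these genes. Over all 32851 promoter windows of the table, which run from 250 bases before to 50 bases after an annotated start, GGGNNTTCC was found in 5.82%, TTTCNNTT in 23.9%, TGACG in 20.8%, CCAAT in 37.4% and TATAAA in 13.6%. The windows of H2-K1 and H2-D1 held all 5 motifs, whereas that of H2-Q10 held TTTCNNTT and TATAAA and none of the other 3. Over the first 53 bases of the stretch, which end with the interferon response match, H2-Q10 was identical to H2-K1 at 49 positions and H2-D1 was identical to H2-K1 at 52. At the 9 bases of the NF-κB match of H2-K1, counted from 1 at its 5′ end, H2-Q10 differed by G2A and T6C and H2-D1 did not differ. The window of H2-T23 held TTTCNNTT at 2 places and CCAAT at 1, and that of B2m held every motif but GGGNNTTCC. That pattern allows only 2 bases between GGG and TTCC. It therefore passes over ggaaagtccc in the B2m stretch, which on the other strand has 3 bases there. A window without this match may still hold an NF-κB site. A match to letters is a description of the sequence, and binding was not measured in these samples. Windows were found for 5 of the 6 genes, all but H2-Q5.

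**Figure D1:**
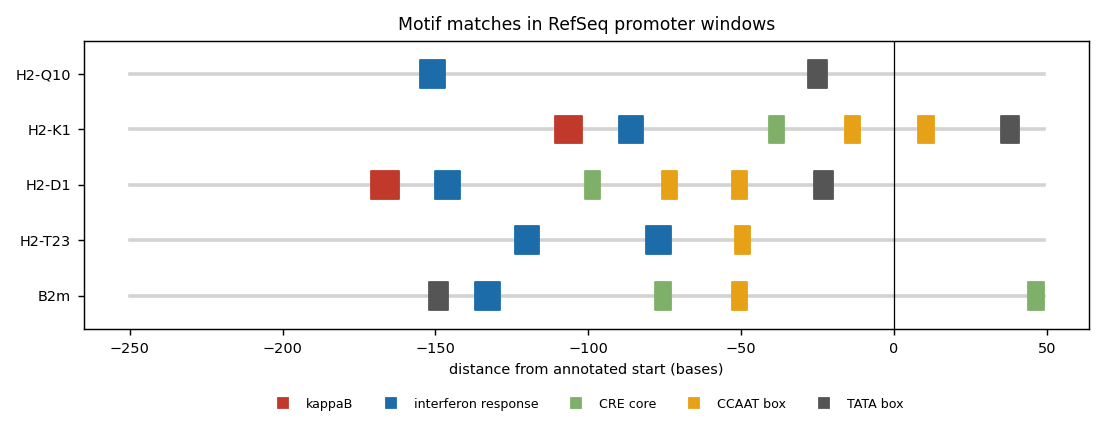
Motif matches (coloured boxes) in the RefSeq promoter windows of 5 class I genes, against the distance from the annotated start in bases; for H2-K1 the first of 2 annotated windows is drawn. H2-K1 and H2-D1 show the same order of boxes, and H2-Q10 lacks the red, green and orange ones.

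The deposited values were 1 signal per probe set and array on a linear scale, and array medians lay between 49.5 and 53.7. Correlations between arrays showed 2 clusters that cut across the groups and that the labels do not name. Cluster 1 held 3 of 8 day-5, 2 of 4 day-40 and all 3 day-115 arrays, and cluster 2 held the 5 other day-5, the 2 other day-40 and all 4 nrd arrays. Day 115 and nrd therefore shared no cluster, and calls of genes or of their lists are given below with the cluster as a term as well as without. With the term, day 115 against nrd depends on a cluster difference taken from the day-5 and day-40 arrays. That difference is assumed equal in all groups, and the clusters were read from these same signals. The cells bore the CD8 part of their label: Cd8a, the CD8 α chain, had 1851 to 3906 signal on every array. Differences are of log2(signal + 16), which understates changes of dim probe sets, with their standard error (SE), and p-values are from limma with Benjamini-Hochberg adjustment over all 8695 probe sets tested. One of the 14 class I probe sets, 95773_at, which names H2-D1 and 4 other genes, was too dim to be tested, at 19.98 to 26.4 signal on all arrays.

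H2-Q10 was high in cells taken late after transfer and low in the others. Its probe set with no other symbol, 101898_s_at, had 42.0 to 63.0 signal at day 5, with a median of 52.0. At day 40 the arrays had 190.5, 125, 93.1 and 121, at day 115 they had 129, 232 and 143, and in nrd samples 39.9, 36.9, 38.0 and 51.0. All 7 day-40 and day-115 arrays lay above all 12 day-5 and nrd arrays, day 40 and day 115 overlapped, and so did day 5 and nrd. The differences of 1.34 ± 0.17 (SE) between day 40 and nrd and of 1.08 ± 0.15 between day 40 and day 5 used the values that chose the set and have no test. Within cluster 1 the difference between day 40 and day 5 was 1.22, and within cluster 2 it was 0.90.

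H2-Q10 at day 115 was not named in that choice and was tested, with earlier results of these samples known. The nrd and day-5 arrays were the same that the day-40 rise is read from. The probe set fixed beforehand for H2-Q10 was the brighter 97174_r_at, which passed against neither nrd nor day 5 and is given below. The values of this paragraph are of 101898_s_at, which was added with its values known, so that its p-values describe and are no independent test. H2-Q10 averaged 168 ± 56.1 at day 115 (SD, n = 3) and 41.5 ± 6.50 in nrd samples (SD, n = 4), a log2 difference of 1.64 ± 0.19 and a 3.13-fold level on the log2(signal + 16) scale (limma, adjusted p = 3.06e-05). With the array cluster as a term the difference was 1.37 ± 0.21 (limma, adjusted p = 0.00116). Against day 5, which averaged 52.4 ± 7.01 (SD, n = 8), it was 1.39 ± 0.17 (limma, adjusted p = 6.54e-05), and 1.22 ± 0.17 with the cluster term (limma, adjusted p = 0.000254). Within cluster 1, where 3 day-115 arrays met 3 day-5 arrays, it was 1.29 (limma, adjusted p = 0.0240). Day 5 and nrd differed by 0.25 ± 0.15 (limma, adjusted p = 0.451), and by 0.15 ± 0.14 with the term (limma, adjusted p = 0.831). Every fit that left out 1 array kept the calls at day 115, with differences from 1.41 to 1.80 against nrd and from 1.16 to 1.54 against day 5.

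The H2-Q10 signal was set beside albumin (Alb), the main secreted protein of the liver, because liver RNA could carry H2-Q10 transcripts into a sample. Alb had 29.4, 408 and 587 signal on day-115 arrays 1, 2 and 3, against 24.1 to 27.3 in nrd samples. It had 22.4 to 30.9 on the day-40 arrays and 22.4 to 32.0 on the day-5 arrays. Thus 2 day-115 arrays stood apart in Alb, whereas the 4 day-40 arrays and day-115 array 1 combined an Alb signal near that of nrd samples with 93.1 to 190.5 signal of H2-Q10. With array 1 alone standing for day 115, the H2-Q10 difference was 1.34 from nrd and 1.09 from day 5. The Alb difference from nrd was 0.11 in that setting, which was chosen after the data were seen. A lone array has no spread of its own, so these values are descriptions, and the source of the H2-Q10 signal was not tested. The H2-Q10 difference between day 115 and day 40, a description, was 0.31 ± 0.19 with all arrays and 0.0078 with array 1 alone.

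**Figure D2:**
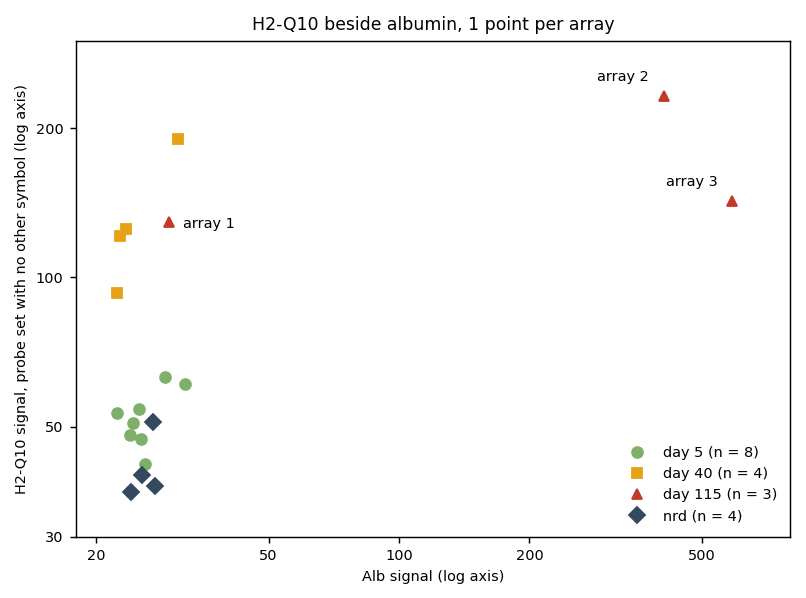
Signal of H2-Q10 (101898_s_at) against that of Alb (94777_at) on log axes, 1 point per array, by group. The 4 day-40 arrays and day-115 array 1 lie high on the H2-Q10 axis at the same Alb as the day-5 and nrd arrays; day-115 arrays 2 and 3 have 408 and 587 signal of Alb.

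The wider liver list was also high on day-115 arrays 2 and 3. Of its 39 genes, 31 had a probe set and 18 were tested, and their summed signal was 1106, 2252.5 and 2250.2 on day-115 arrays 1 to 3, against 943 to 1085 in nrd samples, 942 to 1239 at day 5 and 948 to 1100.5 at day 40. The median difference of the 18 between day 115 and nrd was 0.31, beside 0.012 over all tested probe sets, and 0.15 with the cluster term. The urinary protein gene Mup3 differed by 1.35 ± 0.25, the protease inhibitor gene Serpina1c by 1.11 ± 0.20 and the lipoprotein gene Apoa1 by 1.03 ± 0.23, and with the cluster term by 1.19, 0.88 and 0.69. These are descriptions, since the liver signal at day 115 was known when the genes were chosen. In bulk samples, fewer cells of a type and less RNA per cell cannot be told apart.

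Markers of plasma cells summed highest at day 115, where most of the sum was the signal of Txndc5. Of 9 such genes 7 had a probe set, and their summed signal was 288 to 475 at day 5, 385 to 915 at day 40, 972 to 1277 at day 115 and 289 to 438 in nrd samples. Of 5 tested, 2 rose at day 115 relative to nrd, the disulphide isomerase gene Txndc5 by 2.78 ± 0.40 (limma, adjusted p = 0.000267) and the immunoglobulin joining chain gene Jchain by 0.96 ± 0.21 (limma, adjusted p = 0.00463), and both also passed with the cluster term. Txndc5 alone had 739 to 1049.5 signal at day 115 and 87.8 to 141.5 in nrd samples. The high sum at day 115 is thus mainly a reading of 1 gene and not of the list. The median difference of the 5 was 0.081, and -0.18 with the term. With the term 1 of the 5 was lower at an unadjusted p under 0.05 (limma). Jchain had 39.4 to 52.2 signal on the day-40 arrays, 141, 47.2 and 74.0 on day-115 arrays 1 to 3 and 28.9 to 40.4 in nrd samples. On the day-115 arrays the order of Jchain was not that of H2-Q10. The part of these cells in the class I signals was not tested.

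The second probe set that names H2-Q10, 97174_r_at, also names H2-Q9, H2-Q7 and H2-K1 and was the brighter of the pair. It had 183 to 293 signal at day 5 with a median of 209.6. At day 40 it had 239.5, 226, 258 and 202, at day 115 197, 321 and 221, and in nrd samples 208, 204, 224 and 223.5. The 4 groups overlapped. The differences were 0.15 ± 0.19 between day 115 and nrd (limma, adjusted p = 0.560), 0.082 ± 0.16 between day 115 and day 5 (limma, adjusted p = 0.763) and 0.072 ± 0.15 between day 5 and nrd (limma, adjusted p = 0.826), and each turned negative with the cluster term. The rise of H2-Q10 was thus seen in 1 of its 2 probe sets, and the one that did not show it shares its signal with 3 other genes.

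**Figure D3:**
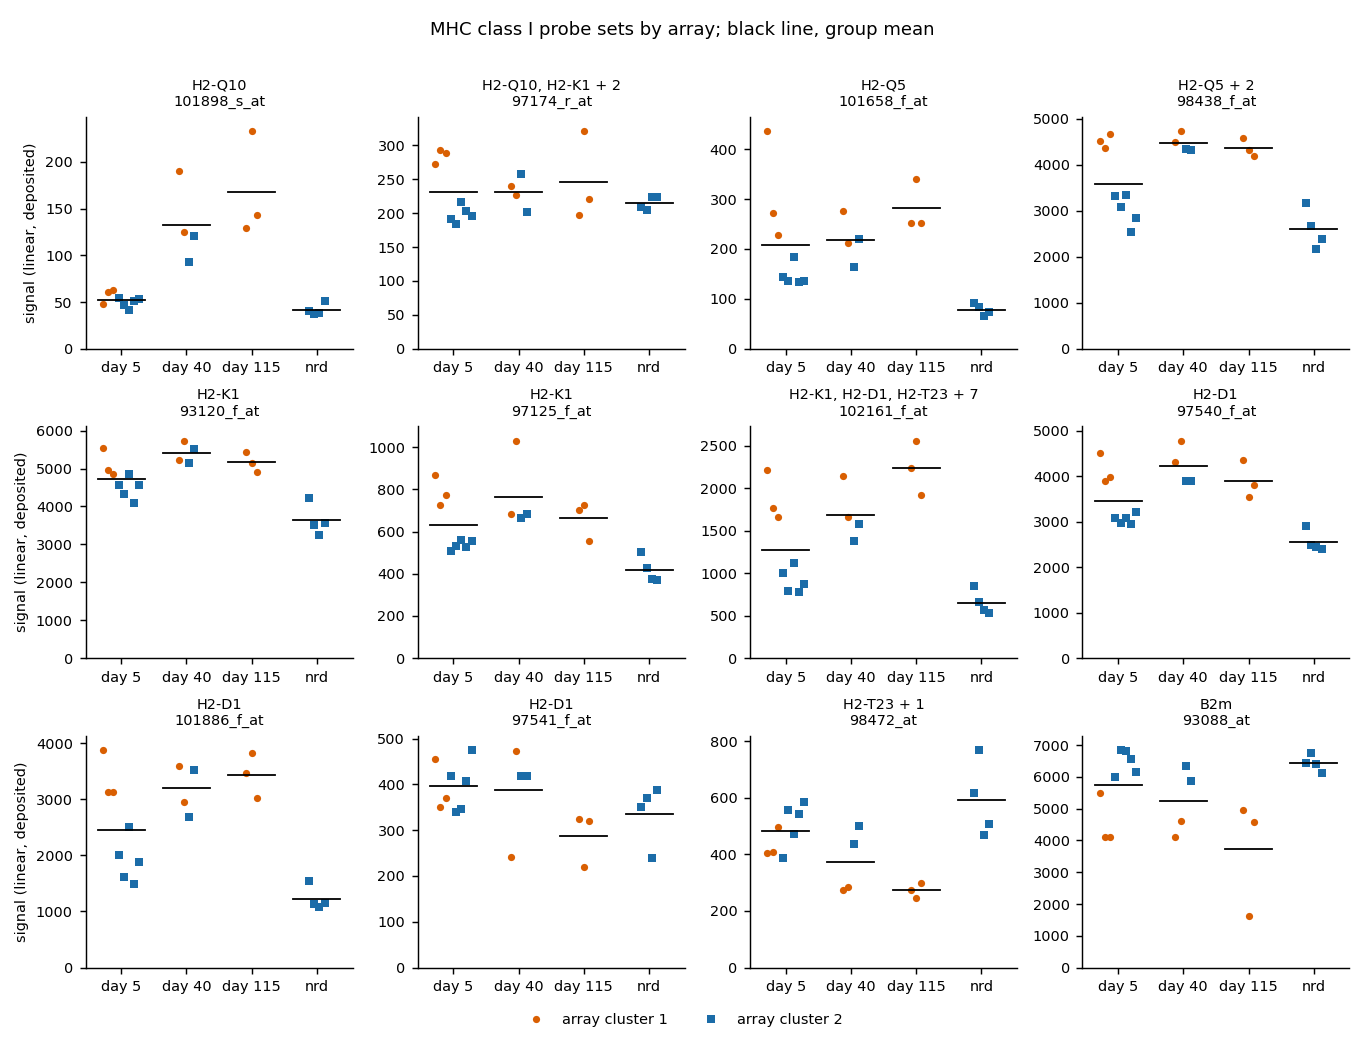
Deposited signal (linear axis from 0) of 12 class I probe sets on every array, by group; colours and shapes mark the 2 array clusters and black lines the group means. H2-Q10 (101898_s_at) is high in the day-40 and day-115 arrays of both clusters present, whereas most other heavy chain probe sets are lowest in nrd and, within day 5, higher in cluster 1.

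H2-Q5 was lower in nrd cells than in every group from irradiated hosts. Its own probe set, 101658_f_at, had 133 to 435 signal at day 5 with a median of 164. It had 276, 213, 164 and 219.5 at day 40, 251, 341 and 253 at day 115, and 91.2, 82.8, 66.5 and 73.6 in nrd samples. All 15 arrays from irradiated hosts lay above the 4 nrd arrays, and the 3 groups from irradiated hosts overlapped. At day 5 it averaged 208 ± 105 (SD, n = 8) and in nrd samples 78.5 ± 10.7 (SD, n = 4), a difference of 1.14 ± 0.25 (limma, adjusted p = 0.0348). It was 0.86 ± 0.17 with the cluster term (limma, adjusted p = 0.0123) and 0.78 within cluster 2 (limma, adjusted p = 0.00595), where 5 day-5 arrays met all 4 nrd arrays. The call without the term did not hold when day-5 array 2, 3 or 6 or any 1 of the nrd arrays was left out, with adjusted p from 0.0510 to 0.161 (limma). Of 65 tested markers of liver, blood and immune cells other than CD8 T cells, 0 passed between day 5 and nrd in either fit (limma), and 1 was higher and 0 lower at an unadjusted p under 0.05. Over all tested probe sets 0.414% were called higher and 0.380% lower there, and 1.00% and 0.610% with the term. A count of 0 of 65 is near those shares, and the part of other cells in the H2-Q5 difference was not tested.

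At day 115 H2-Q5 stood 1.65 ± 0.31 above nrd (limma, adjusted p = 0.00186), and 0.90 ± 0.26 with the cluster term (limma, adjusted p = 0.0509). Day 115 and day 5 differed by 0.50 ± 0.27 (limma, adjusted p = 0.207), and by 0.039 ± 0.21 with the term (limma, adjusted p = 0.919). The probe set 98438_f_at, which names H2-Q5 with H2-Q9 and H2-Q7, genes of the Qa-2 antigen, was 0.75 ± 0.20 higher at day 115 than in nrd samples (limma, adjusted p = 0.0118) and 0.35 ± 0.19 with the cluster term (limma, adjusted p = 0.281). Its signals were 2542 to 4668 at day 5, 4308 to 4721 at day 40, 4183 to 4579.5 at day 115 and 2177 to 3175 in nrd samples.

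The classical heavy chain H2-D1 was lowest in nrd samples in 2 of its 3 own probe sets. The probe set 101886_f_at had 1489.9 to 3876 signal at day 5 with a median of 2257. It had 3594, 2959, 2692 and 3528 at day 40, 3471, 3823 and 3018 at day 115, and 1539.5, 1129, 1083 and 1145 in nrd samples. The day-40 and day-115 arrays lay above all nrd arrays, and at day 5 only 1 array, with 1489.9, lay below the highest nrd array. Its difference between day 115 and nrd was 1.49 ± 0.28 (limma, adjusted p = 0.00192), and 0.91 ± 0.26 with the cluster term (limma, adjusted p = 0.0524). For day 5 against nrd it was 0.94 ± 0.22 (limma, adjusted p = 0.0575) and, with the cluster term, 0.72 ± 0.18 (limma, adjusted p = 0.0432).

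The probe set 97540_f_at of H2-D1 averaged 3902 ± 417 at day 115 (SD, n = 3) and 2561 ± 227 in nrd samples (SD, n = 4), a difference of 0.60 ± 0.17 (limma, adjusted p = 0.0142), and 0.25 ± 0.14 with the cluster term (limma, adjusted p = 0.321). The third probe set of H2-D1, 97541_f_at, gave no such order. It had 339 to 475 signal at day 5, 242 to 473 at day 40, 219 to 324 at day 115 and 238 to 387 in nrd samples, with a difference of -0.21 ± 0.22 between day 115 and nrd (limma, adjusted p = 0.495), or -0.10 ± 0.26 with the term (limma, adjusted p = 0.845).

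H2-K1, the gene whose product presents the OT-I peptide, was also lowest in nrd samples in 2 of its 3 own probe sets. Its brightest probe set, 93120_f_at, had 4089.7 to 5539 signal at day 5, with a median of 4724. It had 5229, 5732, 5149 and 5514 at day 40, 5436, 5151 and 4909 at day 115, and 4219.7, 3519.5, 3257 and 3562 in nrd samples. Day 40 and day 115 lay above every nrd array, and the lowest day-5 array lay below the highest nrd array. The difference was 0.51 ± 0.13 between day 115 and nrd (limma, adjusted p = 0.0102) and 0.37 ± 0.14 with the cluster term (limma, adjusted p = 0.134). For day 5 against nrd it was 0.38 ± 0.10 (limma, adjusted p = 0.116), and 0.32 ± 0.095 with the term (limma, adjusted p = 0.103).

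A second probe set of H2-K1, 97125_f_at, was 0.64 ± 0.22 higher at day 115 than in nrd samples (limma, adjusted p = 0.0366), and 0.18 ± 0.19 with the cluster term (limma, adjusted p = 0.611). That call did not hold without day-115 array 1 or 2, nor without nrd array 2, 3 or 4, with adjusted p from 0.0561 to 0.106 (limma). The third, 97700_at, was dim, at 41.3 to 67.5 signal over all arrays, and its difference between day 115 and nrd was -0.25 ± 0.11 (limma, adjusted p = 0.102), or -0.28 ± 0.14 with the term (limma, adjusted p = 0.255).

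The probe set 102161_f_at pools 10 symbols, among them H2-K1, H2-D1 and H2-T23. It averaged 2240.3 ± 319 at day 115 (SD, n = 3), 1275 ± 537 at day 5 (SD, n = 8) and 652 ± 139 in nrd samples (SD, n = 4). Its difference between day 115 and nrd was 1.77 ± 0.32 (limma, adjusted p = 0.00158) and 0.97 ± 0.25 with the cluster term (limma, adjusted p = 0.0363). Against day 5 it was 0.90 ± 0.28 (limma, adjusted p = 0.0424), which did not pass with the cluster term (0.40 ± 0.20, limma, adjusted p = 0.188), nor without any 1 of the day-115 arrays or of day-5 arrays 4 to 8 (limma, adjusted p from 0.0607 to 0.156).

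The probe set that H2-T23 shares with the neighbouring pseudogene H2-T-ps alone, 98472_at, went the other way. It had 388 to 585 signal at day 5 with a median of 486. It had 273, 286, 438 and 500.4 at day 40, 275, 244 and 299 at day 115, and 619, 768, 469 and 507 in nrd samples. All day-115 arrays lay below all day-5 and nrd arrays. It fell by 1.05 ± 0.22 on the log2 scale at day 115 relative to nrd (limma, adjusted p = 0.00400) and by 0.78 ± 0.20 relative to day 5 (limma, adjusted p = 0.0156). With the cluster term these were -0.67 ± 0.23 (limma, adjusted p = 0.0959) and -0.54 ± 0.18 (limma, adjusted p = 0.0535), and the fall relative to day 5 did not pass without day-115 array 2 (limma, adjusted p = 0.0743). At day 40 the 2 arrays of cluster 1 had 273 and 286, and the 2 of cluster 2 had 438 and 500.4.

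B2m, the light chain that class I heavy chains pair with, had its highest group mean in nrd samples. Its probe set 93088_at had 4095 to 6841 signal at day 5 with a median of 6069. It had 4107, 4603, 6346 and 5876 at day 40, 4947, 1629 and 4595 at day 115, and 6439.8, 6768, 6418 and 6116 in nrd samples. All day-115 arrays lay below all nrd arrays, and array 2 stood far below the other 18. Its difference between day 115 and nrd was -0.94 ± 0.30 (limma, adjusted p = 0.0255). Without day-115 array 2 that difference was -0.43 (limma, adjusted p = 0.166), and with the cluster term it was -0.44 ± 0.31 (limma, adjusted p = 0.419). Day-115 array 2 also had the highest H2-Q10 signal and 408 signal of Alb.

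Counted together, 8 of the 13 tested class I probe sets rose between day 115 and nrd, against 15.1% of all 8695 tested, and 2 of the 13 fell, against 12.8%. With the cluster term 2 of 13 rose, 101898_s_at and 102161_f_at, against 3.15% of all, and 0 of 13 fell, against 1.27%. Between day 5 and nrd 1 of 13 rose, H2-Q5, against 0.414%, and 0 fell, against 0.380%; with the term these were 2 of 13, H2-Q5 and 101886_f_at of H2-D1, against 1.00%, and 0 against 0.610%. Set against day 5, 2 of 13 rose at day 115, against 8.23%, and 1 fell, against 5.62%; with the term 1 rose, H2-Q10, against 7.23%, and 0 fell, against 7.10%. At an unadjusted p under 0.05 (limma), 0 of 13 were lower between day 5 and nrd in either fit, and 1 of 13 was lower with the term in each comparison of day 115. Several of these probe sets match the same transcripts, so the 13 are not independent, and the counts are descriptions of probe sets chosen with earlier results known. The 2 comparisons with nrd share those 4 samples.

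**Figure D4:**
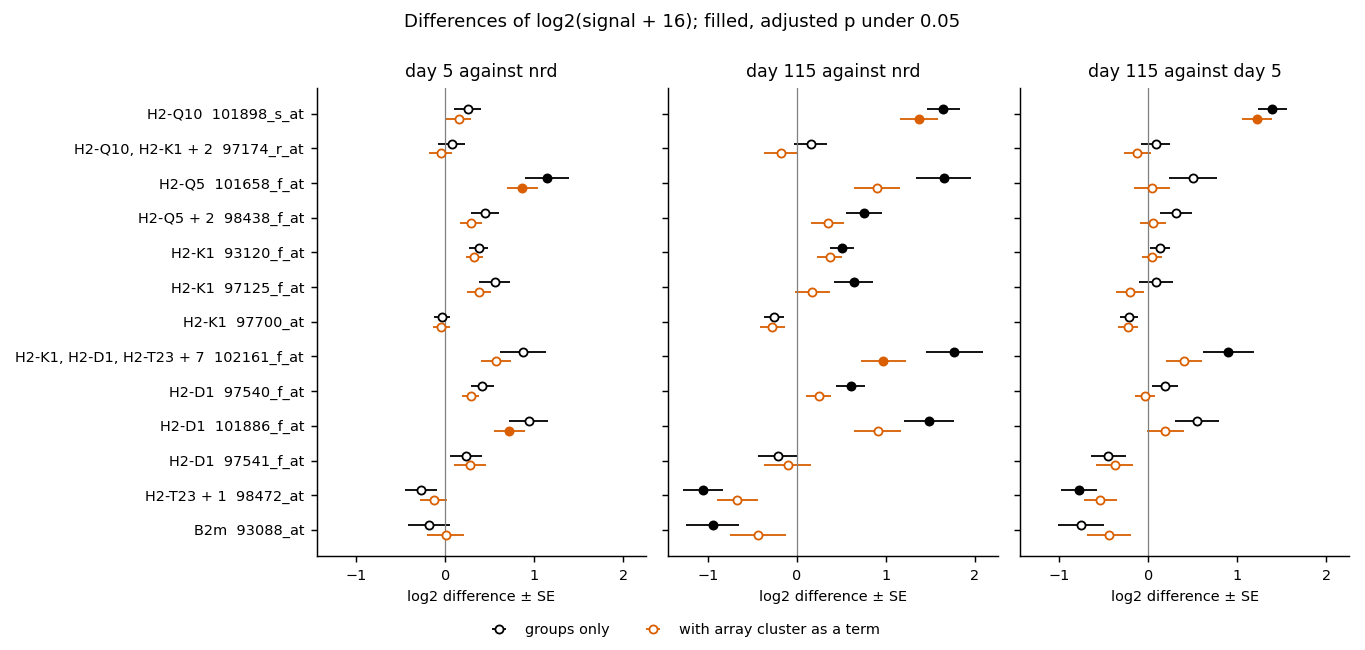
Log2 difference ± SE of the 13 tested class I probe sets in 3 comparisons, with groups only (black) and with the array cluster as a term (orange); filled points have an adjusted p under 0.05. H2-Q10 (101898_s_at) is filled in both fits in the 2 panels that hold day 115, whereas the filled points of the probe sets of H2-Q5, H2-K1 or H2-D1 alone in the middle panel are all from the fit with groups only.

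Within day 5 most heavy chain signals were higher in array cluster 1 than in cluster 2. H2-Q5 (101658_f_at) averaged 311 over the 3 day-5 arrays of cluster 1 and 147 over the 5 of cluster 2, and 101886_f_at of H2-D1 averaged 3382.5 and 1902. H2-Q10 (101898_s_at) averaged 57.3 in cluster 1 and 49.5 in cluster 2, a gap of 0.16 on the log2 scale. For B2m the order was turned, with 4560.3 in cluster 1 and 6474 in cluster 2.

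Heavy chain genes outside the 6 were called at shares near those of all probe sets. Of the 25 on the list 11 were tested, and between day 115 and nrd 2 rose and 1 fell, beside 15.1% and 12.8% of all tested, with a median difference of -0.15 beside 0.012 over all tested probe sets. H2-Q4, a gene of the Qa region, averaged 1763 ± 214 at day 115 (SD, n = 3) and 465 ± 83.4 in nrd samples (SD, n = 4), a difference of 1.90 ± 0.33 (limma, adjusted p = 0.00134) that was 1.10 with the cluster term (limma, adjusted p = 0.0292). H2-Q4 at day 5 differed from nrd by 1.05 ± 0.27 (limma, adjusted p = 0.0723), and by 0.75 with the term (limma, adjusted p = 0.0450). H2-Bl rose by 0.87 ± 0.23 at day 115 (limma, adjusted p = 0.0109), and by 0.28 with the term (limma, adjusted p = 0.312). Cd1d1, a class I-like molecule that presents lipids to NKT cells, fell by 2.15 ± 0.45 at day 115 relative to nrd (limma, adjusted p = 0.00380); with the term the difference was -0.74 (limma, adjusted p = 0.0447).

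The genes that load peptides were also called at shares near those of all probe sets. Of 10 tested, 2 rose and 2 fell between day 115 and nrd, beside 15.1% and 12.8% of all, with a median of 0.018, and 0 passed with the cluster term, where 1 was higher and 2 were lower at an unadjusted p under 0.05 (limma). Tap1, a subunit of the peptide transporter, averaged 688 ± 221 at day 115 (SD, n = 3) and 271 ± 35.7 in nrd samples (SD, n = 4), a difference of 1.26 ± 0.33 (limma, adjusted p = 0.0115) that was 0.37 with the term (limma, adjusted p = 0.362). A dim second probe set of Tap1, 162278_r_at, differed by 0.099 ± 0.10 (limma, adjusted p = 0.462). Tap2, its partner, averaged 238 ± 48.0 at day 115 (SD, n = 3) and 241 ± 45.5 in nrd samples (SD, n = 4). Tapasin (Tapbp, 100154_at) fell by 1.41 ± 0.29 at day 115 (limma, adjusted p = 0.00322), and its difference was -0.76 with the term (limma, adjusted p = 0.0905).

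Of the other 2 probe sets of Tapbp, 162104_f_at fell by 0.62 ± 0.16 (limma, adjusted p = 0.0117) and 102689_at differed by 0.62 ± 0.33 in the opposite direction (limma, adjusted p = 0.162), which was -0.36 with the term (limma, adjusted p = 0.239). The chaperone calnexin (Canx) fell by 0.84 ± 0.18 (limma, adjusted p = 0.00471), and the glucosidase subunit gene Prkcsh rose by 1.24 ± 0.35 (limma, adjusted p = 0.0159). At day 5 relative to nrd 0 of the 10 loading genes and 0 of 5 genes of the immunoproteasome and the proteasome activator PA28 passed the test (limma). Likewise 0 of 17 regulators of class I genes and 0 of 16 interferon-stimulated genes passed (limma), and these counts were the same with the term. Of all tested probe sets only 0.414% were called higher and 0.380% lower there, or 1.00% and 0.610% with the term, so the counts are near those shares. Of these 47 genes together, counted once each, 6 were higher and 3 lower at an unadjusted p under 0.05 in either fit.

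**Figure D5:**
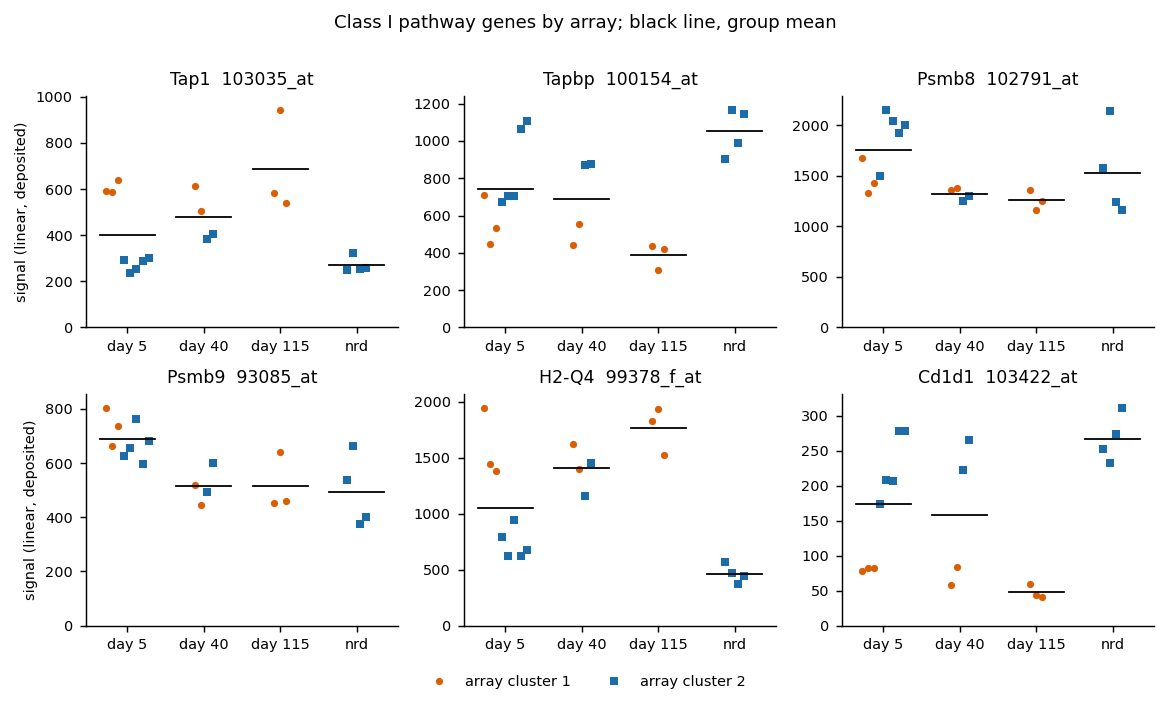
Deposited signal (linear axis from 0) of 6 class I pathway genes on every array, by group; colours and shapes mark the array clusters and black lines the group means. By group mean, Tap1 and H2-Q4 are lowest in nrd, and Tapbp and Cd1d1 are lowest at day 115. Within day 5 and day 40 Tap1, Tapbp and Cd1d1 differ between the clusters, and the day-5 arrays of cluster 2 average 274 for Tap1, near the 271 of nrd.

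Genes of the immunoproteasome, the form of the proteasome that interferon induces, and of the proteasome activator PA28 formed 1 list. Of its 5 tested genes 0 rose and 1 fell between day 115 and nrd (limma), beside 15.1% and 12.8% of all tested. The counts were the same at an unadjusted p under 0.05. The fall was that of Psme3, a PA28 gene and not a subunit of the immunoproteasome, by 1.28 ± 0.42 (limma, adjusted p = 0.0323). With the cluster term its difference was 0.058 in the opposite direction (limma, adjusted p = 0.866). The catalytic subunit gene Psmb8 averaged 1258 ± 97.9 at day 115 (SD, n = 3) and 1532 ± 447 in nrd samples (SD, n = 4). Psmb9 averaged 517 ± 107 at day 115 (SD, n = 3), 691 ± 70.8 at day 5 (SD, n = 8) and 494 ± 133 in nrd samples (SD, n = 4), and its difference between day 5 and nrd was 0.50 ± 0.16 (limma, adjusted p = 0.177).

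Regulators of class I genes gave 8 rises and 2 falls of 17 between day 115 and nrd, beside 15.1% and 12.8% of all tested. Their median difference was 0.42, beside 0.012 over all tested probe sets. With the cluster term 0 passed (limma), and 1 was higher and 0 lower at an unadjusted p under 0.05. The interferon receptor genes Ifnar1 and Ifngr1 rose by 1.43 ± 0.42 (limma, adjusted p = 0.0199) and 1.26 ± 0.31 (limma, adjusted p = 0.00786), and the NF-κB subunit gene Rela rose by 1.12 ± 0.28 (limma, adjusted p = 0.00881). Irf1, a factor that binds interferon response elements, averaged 581 ± 184 at day 115 (SD, n = 3) and 566 ± 24.2 in nrd samples (SD, n = 4). Among 16 interferon-stimulated genes 3 rose and 5 fell, beside the same 15.1% and 12.8% of all tested, with a median of 0.25. Irf7 rose by 1.06 ± 0.26 (limma, adjusted p = 0.00885) and Usp18 by 0.98 ± 0.35 (limma, adjusted p = 0.0468), whereas Gbp3 fell by 1.39 ± 0.46 (limma, adjusted p = 0.0317) and Ifi47 by 1.05 ± 0.24 (limma, adjusted p = 0.00559). The Usp18 call did not hold without any 1 of the day-115 arrays or nrd array 1, 3 or 4 (limma, adjusted p up to 0.165). That of Gbp3 did not hold without day-115 array 2 or 3 or nrd array 1, 2 or 4 (limma, adjusted p up to 0.106). With the term 0 of the 16 rose and 1 fell (limma), beside 1 higher and 4 lower at an unadjusted p under 0.05. Nlrc5 had no probe set of its own.

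Among 10 tested receptors for class I molecules 3 rose and 1 fell between day 115 and nrd, beside 15.1% and 12.8% of all tested. With the cluster term 0 of the 10 passed (limma), and 4 were higher and 2 lower at an unadjusted p under 0.05. Klrd1 (CD94), a partner in the receptor for the Qa-1 molecule that H2-T23 encodes, fell by 0.85 ± 0.27 (limma, adjusted p = 0.0269), and its difference was -0.47 with the cluster term (limma, adjusted p = 0.358). The activating receptor gene Klrk1 (NKG2D) rose by 0.44 ± 0.10 (limma, adjusted p = 0.00698) and Klra3, a Ly49 receptor gene, by 0.58 ± 0.13 (limma, adjusted p = 0.00531), and with the term the differences were 0.28 (limma, adjusted p = 0.166) and 0.29 (limma, adjusted p = 0.175). Klra3 was also the only gene of these pathway lists that rose between day 5 and nrd without the cluster term, by 0.45 ± 0.10 (limma, adjusted p = 0.0486). It was dim, at 35.9 ± 7.66 signal at day 5 (SD, n = 8) and 21.8 ± 3.18 in nrd samples (SD, n = 4). With the term the difference was 0.34 (limma, adjusted p = 0.0412). The call without the term did not hold when any 1 of the nrd arrays was left out. Nor did it hold without day-5 array 1, 2, 3, 5, 6, 7 or 8, with adjusted p up to 0.184 over these fits (limma). Cd160 fell by 0.70 ± 0.22 at day 115 relative to day 5 (limma, adjusted p = 0.0396), and by 0.97 with the term (limma, adjusted p = 0.00570).

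Of the class II genes, which mark B cells and other antigen-presenting cells rather than mouse T cells, 5 of 10 tested rose at day 115 relative to nrd. Over all tested probe sets 15.1% rose. Of 11 genes all had a probe set and 10 were tested, and their summed signal was 882 to 1823 at day 5, 1206 to 1878 at day 40, 1501 to 3010.0 at day 115 and 897 to 1155 in nrd samples. With the cluster term 0 of the 10 passed (limma), with 4 higher and 1 lower at an unadjusted p under 0.05. H2-Aa had 786, 263 and 243 signal on day-115 arrays 1 to 3, against 91.5, 159, 54.1 and 54.9 in nrd samples, a difference of 1.98 ± 0.49 (limma, adjusted p = 0.00847) that was 1.07 with the term (limma, adjusted p = 0.214). Array 1, the one with Alb at the level of nrd samples, thus had the most H2-Aa, and the part of class II-bearing cells in the class I signals was not tested.

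The counts of other markers between day 115 and nrd are to be read beside 15.1% of all tested probe sets that rose and 12.8% that fell. Markers of B cells gave 1 rise of 8 tested, the kinase gene Blk by 0.89 ± 0.19 (limma, adjusted p = 0.00437). Their summed signals were 725 to 1035.4 at day 115 and 635 to 681 in nrd samples. Of 6 erythroid genes 1 rose, the globin gene Hba-a1 by 2.19 ± 0.73 (limma, adjusted p = 0.0327), and it ranged from 128 to 2337 within day 5. Myeloid markers gave 1 fall of 9, Ctss, by 1.32 ± 0.41 (limma, adjusted p = 0.0242), and dendritic cell markers 1 rise of 5, Itgax, by 0.60 ± 0.15 (limma, adjusted p = 0.00956). Of 4 NK cell markers 0 passed (limma), and 0 did at an unadjusted p under 0.05, and of 2 CD4 T cell markers Icos fell by 0.51 ± 0.16 (limma, adjusted p = 0.0273). Of 12 CD8 T cell markers 2 rose, Cd2 by 1.33 ± 0.26 (limma, adjusted p = 0.00249) and Thy1 by 1.08 ± 0.23 (limma, adjusted p = 0.00366). With the cluster term Thy1 passed, at 1.01 (limma, adjusted p = 0.0411), and the calls of Blk, Hba-a1, Ctss, Itgax, Icos and Cd2 did not hold. Blk then had 0.75 (limma, adjusted p = 0.0713) and Cd2 0.70 (limma, adjusted p = 0.0618), whereas Hba-a1 had 0.96 (limma, adjusted p = 0.482) and Itgax 0.24 (limma, adjusted p = 0.295). Ctss had -0.15 (limma, adjusted p = 0.755) and Icos -0.076 (limma, adjusted p = 0.745).

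The genes most like H2-Q10 (101898_s_at) over the 19 arrays, after the mean of each array cluster was subtracted, were Tcf25 with a Pearson correlation of 0.94, Fasl with 0.92, Gtf2i with 0.92 and Itgb1 with 0.92. Their Spearman correlations were 0.89, 0.85, 0.92 and 0.91. Without day-115 array 2 and day-40 array 4, the farthest from the median, Pearson's values were 0.91, 0.94, 0.86 and 0.87. Fasl, the ligand of the death receptor Fas and a product of cytotoxic T cells, averaged 28.3 ± 4.93 signal at day 5 (SD, n = 8), 112 ± 19.4 at day 40 (SD, n = 4), 95.5 ± 3.71 at day 115 (SD, n = 3) and 28.7 ± 2.69 in nrd samples (SD, n = 4). Itgb1, the integrin β1 chain, averaged 200.4 ± 38.1 at day 5 (SD, n = 8), 558 ± 105 at day 40 (SD, n = 4), 489 ± 138 at day 115 (SD, n = 3) and 237 ± 36.1 in nrd samples (SD, n = 4). Like H2-Q10, both were high in the 2 late groups.

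For the brighter probe set 97174_r_at the most like genes were Tmbim1 with a Pearson correlation of 0.87, Prkd2 with 0.87, Wnk2 with 0.87 and Rps13 with 0.86. For B2m they were Ccdc12 with 0.92, Ms4a6c with 0.84, Rps24 with 0.84 and Eif3e with 0.84. Spearman correlations with B2m were 0.68, 0.46, 0.23 and 0.74. Without day-115 array 2 and day-5 array 1 Pearson's values with B2m were 0.58, 0.23, 0.42 and 0.64. These correlations describe arrays that share their groups and were picked as the highest of all tested genes.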

How the data were processed

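The series holds 19 expression arrays of mouse cells, all taken here as OT-I cells, in 4 groups that follow the sample titles. The authors deposited 1 signal intensity per probe set and array, from 7.68 to 13242; the algorithm behind it is not stated in the labels. The values were never negative and already on a common scale, so no further normalisation was applied. Of 12488 probe sets, 66 controls were left out, and the 8695 with a mean above the 30th percentile (26.4) were tested. Symbols came from the platform's probe table: 10833 probe sets had 1 symbol, 396 had several and 1193 were not listed.

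A linear model in limma (version 3.58.1, R 4.3.3) took log2(signal + 16), the 4 groups together and an intensity trend, and an adjusted p under 0.05 was called; the fit was tested on simulated data. Array clusters came from average linkage on 1 minus Pearson correlation. The members, the 16 gene lists and the tests were chosen with earlier results of these data known. From each list up to 4 genes of largest change past the threshold were named, by their single-symbol probe set of highest mean (without a call, the brightest 2, not all of them printed), with a fixed panel of 11 genes. H2-Q10 was fixed as its brightest probe set, which carries 4 symbols; its own probe set was added with its values known. The arrays' number limits the precision. Alternatives were the pseudocount, filter, trend, scaling between arrays, the cluster as a term or alone, leaving out each array, and the replicate number as a block. Labels do not say that numbers pair samples, so they were not paired. Of 21 same-numbered pairs, 8 had a correlation of deviations from the group mean over 0.1. The array cluster was not removed from these deviations, so they cannot decide whether the numbers pair samples.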

Additional observations from a re-analysis of the deposited data

Results flagged for a closer look

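Of 39 groups of class I values examined, 2 had 1 array far from the rest, by the gap to its neighbour over the group's range; chance gives about 1 in 20. H2-K1 (97125_f_at) had 1030.5 signal on day-40 array 2, beside 663 to 685 on the other 3. H2-D1 (101886_f_at) had 1539.5 signal on nrd array 1, beside 1083 to 1145 on the other 3.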

How the results depend on the processing

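The rise of H2-Q10 (101898_s_at) at day 115 kept its direction under every alternative run: 16 against nrd and 21 against day 5. The p-values of this probe set describe and are no independent test, so its calls under the alternatives are no further support. Its day-40 differences, which have no test, moved with the pseudocount, to 1.62 (pseudocount 1) and 0.88 (pseudocount 64) against nrd and to 0.73 (pseudocount 64) against day 5; a larger pseudocount by its construction shrinks dim values. With day-115 array 1 alone, an alternative chosen after the data were seen, its difference between day 115 and day 40 was 0.0078.

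The probe set 97174_r_at, with 4 symbols, changed sign under several settings. Between day 5 and nrd it was -0.052 with the cluster term and -0.11 in cluster 2 only. Day 115 against nrd gave -0.18 with the term, -0.12 with array 1 alone and from -0.040 to 0.29 when 1 array was left out. Day 115 against day 5 gave -0.12 with the term, -0.15 with the replicate number as a block, -0.23 in cluster 1 only, -0.19 with array 1 alone and from -0.11 to 0.22 when 1 array was left out. Between day 40 and day 5 it was -0.27 in cluster 1 only, and between day 115 and day 40 it was -0.21 with array 1 alone.

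Other sign changes were in differences that passed no test, save Psme3 and Gbp3 between day 115 and nrd, which were called without the cluster term and had 0.058 and 0.033 with it. Between day 115 and day 5, with the term, the block and cluster 1 only in turn, 97125_f_at had -0.20, -0.18 and -0.26 and 97540_f_at had -0.038, -0.035 and -0.083. In cluster 1 only, 101658_f_at had -0.10 and 98438_f_at -0.051 there, and 97700_at had 0.026 with array 1 alone. Between day 5 and nrd 97700_at had 0.023 with the block, 0.0091 without nrd array 3 and 0.019 without nrd array 4, and B2m had 0.0038 with the term and 0.0074 in cluster 2 only.

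Counts of called probe sets moved most. For day 5 against nrd 69 were called, 140 with the term, 1707 with the block, 207 in cluster 2 only and 13 to 80 with 1 array left out. For day 115 against nrd 2427 were called, 384 with the term, 205 with array 1 alone and 1554 to 2006 with 1 array left out. For day 115 against day 5 1205 were called, 1865 with no filter, 198 with the block, 111 in cluster 1 only, 80 with array 1 alone and 589 to 1653 with 1 array left out. Between day 40 and nrd 130 were called, 407 with the block, 267 in cluster 2 only and 54 to 138 with 1 array left out. Between day 40 and day 5 109 were called, 650 with the term, 35 with the block, 1 in cluster 1 only, 492 in cluster 2 only and 25 to 187 with 1 array left out. For day 115 against day 40 8 were called, 63 with no filter, 4 with the filter at the 50th percentile, 17 with the term, 3 with the block, 0 in cluster 1 only, 20 with array 1 alone and 3 to 87 with 1 array left out. Labels do not say that the numbers in the titles pair the samples, so the block results rest on a shared number only. Leaving out arrays or using 1 cluster leaves fewer samples; otherwise the cause was not tested. Over 90 results for single probe sets or genes other than the pair that names H2-Q10, and 1651 alternatives, 1356 kept direction and call, 260 lost the call, 19 gained one and 16 changed sign. These counts include the day-115 differences of Alb, Mup3, Serpina1c and Apoa1, which are descriptions and whose calls are no support. They also include the fits with day-115 array 1 alone, which has no spread of its own.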
